A study of Mus musculus with 8 samples.

Results

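The Smad transcription factors were examined in primary pericyte cultures from mouse brain that had been exposed to TGF-β1 or to vehicle. The 8 mouse Smad genes (*Smad1*, *Smad2*, *Smad3*, *Smad4*, *Smad5*, *Smad6*, *Smad7* and *Smad9*) were taken by gene symbol from the 54532 gene identifiers counted, and all 8 were among the 22544 genes expressed highly enough to be tested. Bulk RNA-seq had been made from 8 cultures of wild-type (WT) cells, 4 with vehicle (numbered 1 to 4) and 4 with TGF-β1 at 5 μg mL-1 (numbered 5 to 8), all after 48 h. The dose is printed as the labels and methods give it, and its unit could not be checked from the counts. Per the study's methods, cells were released from brain with papain and passaged before use, and 4 isolates received vehicle and TGF-β1. The labels do not say which TGF-β1 culture shares an isolate with which vehicle culture, so the groups were compared as unpaired.

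Smad proteins carry signals of the TGF-β family from receptors at the cell surface to genes in the nucleus. Receptors for TGF-β and activin phosphorylate Smad2 and Smad3, and receptors for bone morphogenetic proteins (BMPs) phosphorylate Smad1, Smad5 and Smad9. These receptor Smads join Smad4, the common partner, and bind DNA, whereas the inhibitory Smads, Smad6 and Smad7, block the receptors or the receptor Smads, Smad6 mainly in the BMP branch. Phosphorylation and movement into the nucleus change the activity of a Smad without any change in its mRNA, and only mRNA was measured here.

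The 3′ ends of the coding sequences are shown because they hold the feature that sets the receptor Smads apart. Receptor Smads end in a serine-rich tail that the receptor phosphorylates. The last 36 coding bases before the stop codon are given 5′ to 3′, with the last 4 codons in capitals, from GENCODE M21 transcripts on GRCm38, and each stretch lies within 1 coding exon. They are at chr8:79339652-79339687 (minus strand) for *Smad1*, chr13:56737440-56737475 (plus) for *Smad5*, chr3:54797463-54797498 (plus) for *Smad9*, chr9:63650265-63650300 (minus) for *Smad3* and chr9:63953527-63953562 (minus) for *Smad6*.
Smad1: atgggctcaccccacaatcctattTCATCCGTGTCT
Smad5: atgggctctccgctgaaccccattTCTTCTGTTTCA
Smad9: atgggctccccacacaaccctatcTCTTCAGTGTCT
Smad3: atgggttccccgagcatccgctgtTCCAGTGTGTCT
Smad6: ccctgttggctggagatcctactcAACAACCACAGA
*Smad1* and *Smad9* shared 30 of the 36 bases and *Smad1* and *Smad3* shared 21, whereas *Smad1* and *Smad6* shared 8. *Smad3* shared 23 with *Smad2* of its own branch, 22 each with *Smad5* and *Smad9*, and 11 with *Smad6*. Pairs across the 2 receptor branches shared from 15 bases (*Smad2* and *Smad5*) to 22, fewer than the 26 to 30 within the BMP branch. With *Smad6*, each receptor Smad shared 8 to 11. The ends thus differed between the 2 receptor branches, though less than from *Smad6*. Over the whole coding sequence, 75.4% to 78.1% of the aligned bases were identical among *Smad1*, *Smad5* and *Smad9*, 77.1% between *Smad2* and *Smad3*, and 69.2% between *Smad6* and *Smad7*. Despite this likeness, no stretch of 50 bases in any Smad transcript occurred in the transcripts of another Smad, so the members' counts could be told apart at that length. *Smad5* shared 0.679% of its 50-base stretches with *Gm27301*, which overlaps 1.35% of its exon length on the same strand, and *Smad9* shared 0.169% with other genes.

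The counts summed to between 45255235 and 47651397 per culture, and each Smad had between 806 and 5387 counts per culture. Levels are given as CPM, counts scaled by library total and TMM factor. Of 11 pericyte markers, *Pdgfrb* (202 CPM with vehicle), *Cd248* (157), *Notch3* (88.5), *Cspg4* (82.9) and *Anpep* (40.5) were well detected, whereas *Rgs5* was at 8.62 CPM, *Des* at 0.685 and *Higd1b* at 0.278, and *Kcnj8*, *Abcc9* and *Vtn* were too low to be tested. The pericyte markers moved in both directions with TGF-β1, and *Notch3*, *Des* and *Higd1b* did not pass the test. *Cspg4* rose 2.04-fold, *Pdgfrb* rose 1.44-fold and *Cd248* rose to 179.8 CPM, and *Rgs5* and *Anpep* fell to 0.247 and 0.745 of the vehicle level. The summed level of the 11 pericyte markers was 573 to 592 CPM with vehicle and 746 to 775 with TGF-β1, without overlap. Among markers of other cell types, the summed endothelial level was 471 to 484 CPM with vehicle and 472 to 498 with TGF-β1. It came mostly from *Cdh5* and *Flt1*. With vehicle, *Kdr* was at 17.9 CPM, *Tek* at 2.71 and *Pecam1* at 1.11 CPM, and *Cldn5* was too low to be tested. *Flt1* rose 1.21-fold and *Tek* fell to 0.733 of the vehicle level, while *Cdh5*, *Kdr* and *Pecam1* did not pass the test. Summed astrocyte markers were at 234 to 245 CPM with vehicle and 207 to 221 with TGF-β1, and *Aqp4* was at 0 in all vehicle cultures. Of these, *Slc1a2* fell from 38.5 to 16.3 CPM and *Aldh1l1* rose from 5.16 to 8.79 CPM, while *Gja1*, the largest part of the sum, was at 195 and 189.7 CPM and did not pass the test. Summed fibroblast markers lay at 113 to 118 CPM with vehicle and 106 to 114 with TGF-β1. They came mostly from *Pdgfra* (62.5 CPM with vehicle), which did not pass the test, and *Dcn* (52.1), which fell to 0.896 of the vehicle level. *Col15a1* was at 0.409 CPM and *Lum* was too low to be tested. Microglia and macrophage markers lay at 8.29 to 8.97 and 9.66 to 11.3 CPM, with vehicle and TGF-β1 in that order. In the same order, oligodendrocyte markers lay at 3.86 to 5.07 and 5.15 to 5.70, and neuron markers at 2.48 to 3.16 and 2.27 to 2.79 CPM. In bulk RNA, fewer cells of a type and less RNA per cell cannot be told apart, and the part of these cell types in the Smad results was not tested.

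With TGF-β1, 2 of the 8 Smads rose and 3 fell (edgeR's quasi-likelihood test, adjusted p under 0.05). *Smad7* and *Smad1* were higher, by 1.52-fold and 1.24-fold, and *Smad9*, *Smad6* and *Smad3* were lower, at 0.676, 0.839 and 0.914 of the vehicle level. *Smad2*, *Smad4* and *Smad5* did not pass the test. The background is high, since 41.3% of all genes tested were called, 20.9% higher and 20.3% lower, and 60.9% of the genes with a mean of at least 10 CPM were called. The share of Smads called was therefore near that of other genes at their level. DESeq2, which tested more low genes, called 31.7%.

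**Figure D1:**
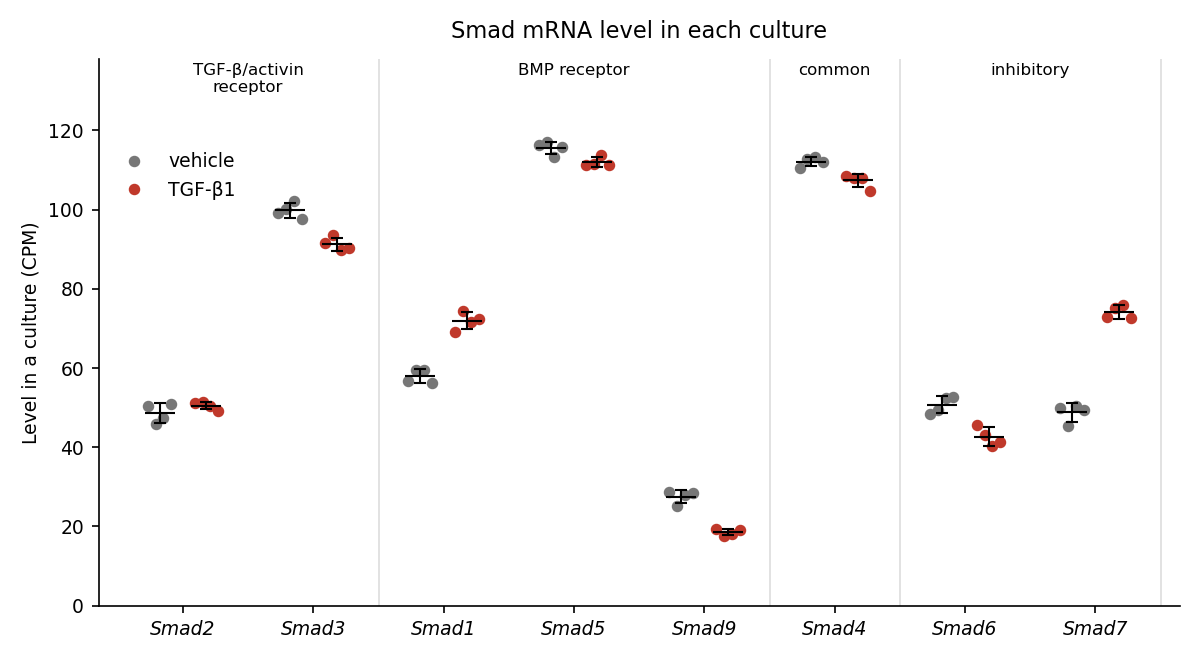
Level of each Smad in CPM on the vertical axis, with each point a culture (grey, 4 vehicle; red, 4 TGF-β1) and black bars the mean ± SD. The red and grey points are fully apart for *Smad3*, *Smad1*, *Smad9*, *Smad4*, *Smad6* and *Smad7* and overlap for *Smad2* and *Smad5*.

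The inhibitory Smads moved in opposite directions. *Smad7* (ENSMUSG00000025880, chromosome 18, 75367529 to 75395935 of GRCm38, plus strand), which binds the activated type I receptor and recruits ubiquitin ligases to it, was at 50, 45.4, 50.3 and 49.4 CPM in the vehicle cultures and at 72.9, 75.2, 76.0 and 72.6 CPM in the TGF-β1 cultures. Every TGF-β1 culture was above every vehicle culture, and the lowest vehicle value was that of replicate 2. The means were 48.8 ± 2.27 and 74.2 ± 1.69 CPM (SD, n = 4 each), a difference of 0.60 ± 0.03 on the log2 scale (SE) with an edgeR adjusted p = 1.96e-19. Of all genes tested, 14.2% had a larger absolute change than *Smad7*, the most strongly changed Smad.

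*Smad6* (ENSMUSG00000036867, chromosome 9, 63953076 to 64022059, minus strand), the inhibitor that acts mainly on BMP signalling, was at 48.5, 49.5, 52.4 and 52.6 CPM with vehicle and at 45.7, 43.2, 40.3 and 41.3 CPM with TGF-β1. The groups were again apart, with TGF-β1 replicate 5 nearest to the vehicle cultures. The means were 50.8 ± 2.08 and 42.6 ± 2.35 CPM (SD, n = 4 each), a difference of -0.25 ± 0.04 on the log2 scale (SE) with an edgeR adjusted p = 5.72e-07. Per kilobase of exon, the ratio of *Smad7* to *Smad6* was 0.651 to 0.731 in the vehicle cultures and 1.13 to 1.34 in the TGF-β1 cultures, so the order of these inhibitors was turned around in all 4.

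In the BMP branch, *Smad1* rose, *Smad9* fell and *Smad5* did not pass the test. *Smad1* (ENSMUSG00000031681, chromosome 8, 79338395 to 79399518, minus strand), a receptor Smad for BMPs, was at 56.8, 59.4, 59.6 and 56.3 CPM with vehicle and at 69.2, 74.4, 71.6 and 72.4 CPM with TGF-β1, without overlap. Its means were 58.0 ± 1.70 and 71.9 ± 2.16 CPM (SD, n = 4 each), a difference of 0.31 ± 0.03 on the log2 scale (SE) with an edgeR adjusted p = 5.44e-11.

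*Smad9* (ENSMUSG00000027796, chromosome 3, 54755582 to 54801257, plus strand), the third BMP receptor Smad and a weaker activator of transcription than its relatives, was at 28.6, 25.1, 27.9 and 28.4 CPM with vehicle and at 19.4, 17.6, 18.2 and 19.1 CPM with TGF-β1. Vehicle replicate 2 was low, as for *Smad7*, but still above each TGF-β1 culture. The means were 27.5 ± 1.63 and 18.6 ± 0.852 CPM (SD, n = 4 each), a difference of -0.56 ± 0.05 on the log2 scale (SE) with an edgeR adjusted p = 7.9e-13, and 15.6% of all genes tested had a larger absolute change.

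*Smad5* (ENSMUSG00000021540, chromosome 13, 56703010 to 56742377, plus strand) was at 116.2, 117.1, 113.4 and 115.7 CPM with vehicle and at 111.2, 111.4, 113.8 and 111.3 CPM with TGF-β1. The groups overlapped, through vehicle replicate 3 and TGF-β1 replicate 7. The difference was -0.05 ± 0.03 on the log2 scale (SE, edgeR adjusted p = 0.16), with a 95% interval from -0.098 to 0.005.

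In the TGF-β and activin branch, *Smad3* fell and *Smad2* did not pass the test. *Smad3* (ENSMUSG00000032402, chromosome 9, 63646767 to 63757994, minus strand), whose phosphorylated form is the DNA-binding effector of TGF-β, was at 99.2, 100.1, 102.2 and 97.7 CPM with vehicle and at 91.5, 93.5, 89.9 and 90.2 CPM with TGF-β1. All TGF-β1 cultures were below all vehicle cultures, by a small margin set against the narrow spread. The means were 99.8 ± 1.89 and 91.3 ± 1.65 CPM (SD, n = 4 each), a difference of -0.13 ± 0.03 on the log2 scale (SE) with an edgeR adjusted p = 0.000145, and 61.6% of all genes tested had a larger absolute change.

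*Smad2* (ENSMUSG00000024563, chromosome 18, 76241580 to 76310963, plus strand), its partner in the branch, was at 50.3, 45.9, 47.3 and 51.0 CPM with vehicle and at 51.1, 51.4, 50.4 and 49.2 CPM with TGF-β1. The ranges overlapped, and vehicle replicates 2 and 3 were the low cultures. The difference was 0.05 ± 0.04 on the log2 scale (SE, edgeR adjusted p = 0.242), with a 95% interval from -0.016 to 0.126. The ratio of *Smad3* to *Smad2* per kilobase of exon was 3.04 to 3.46 with vehicle and 2.82 to 2.91 with TGF-β1, ranges that did not overlap.

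*Smad4* (ENSMUSG00000024515, chromosome 18, 73639009 to 73703780, minus strand), the partner shared by both branches, was at 110.6, 112.7, 113.2 and 112.0 CPM with vehicle and at 108.6, 108.1, 108.0 and 104.8 CPM with TGF-β1. The groups did not overlap, but the difference was small. The means were 112 ± 1.12 and 107 ± 1.76 CPM (SD, n = 4 each), a difference of -0.06 ± 0.03 on the log2 scale (SE) with an edgeR adjusted p = 0.0554, just above the threshold. The call depended on the scaling, with an adjusted p of 0.018 under library totals and 0.0299 under upper-quartile factors. With culture TGF-β1 replicate 5 left out the adjusted p was 0.0482, and with TGF-β1 replicate 8 left out it was 0.262.

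In 6 of the 8 Smads the culture ranges were apart, 2 with TGF-β1 above and 4 below. Among all genes tested 37.9% had ranges apart, 19.1% above and 18.8% below. That share includes many genes at lower levels than the Smads, and it was not computed for genes at their level. For calls, the share was 41.3% over all genes and 60.9% at a mean of at least 10 CPM. For each of these 6 the exact permutation test (two-sided) gave p = 0.0286, the smallest that 4 cultures against 4 allow, and it gave p = 0.0571 for *Smad5* and p = 0.2 for *Smad2*. The 5 calls held in direction and threshold under each alternative tool, scaling and filter tried and with each culture left out.

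**Figure D2:**
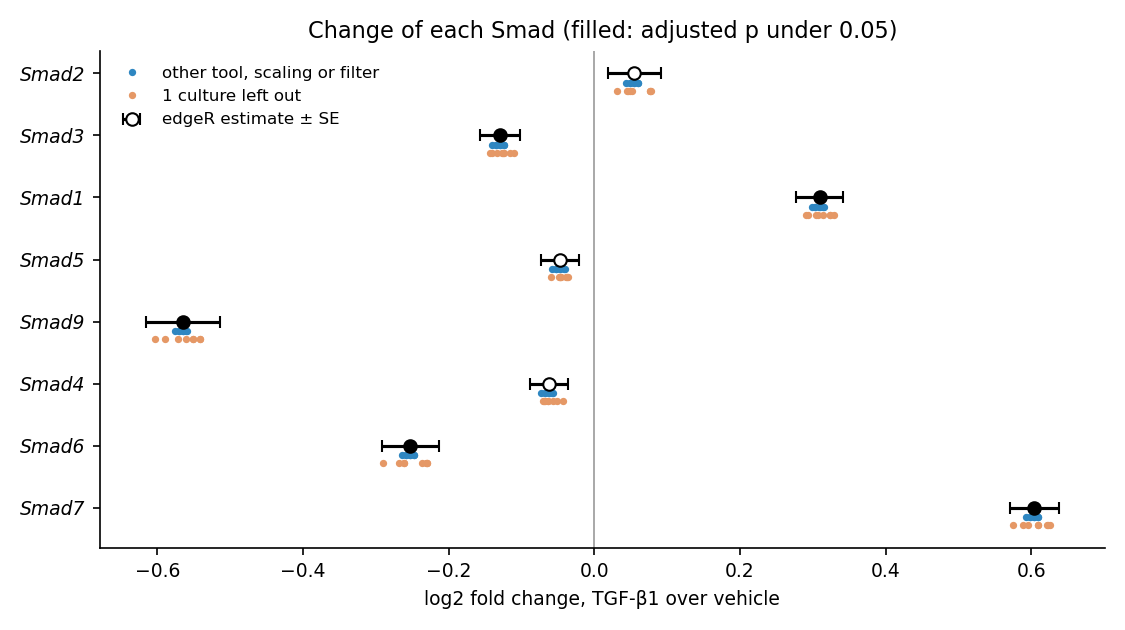
Log2 fold change of each Smad, TGF-β1 over vehicle, on the horizontal axis, with the edgeR estimate ± SE in black (filled where the adjusted p was under 0.05) and, beneath it, the estimates under other tools, scalings or filters (blue) and with 1 culture left out (orange). All estimates of a given Smad lie on the same side of 0, and the black points run from -0.56 for *Smad9* to 0.60 for *Smad7*.

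Levels of different Smads were compared only per length, as CPM per kilobase of annotated exon. With vehicle, *Smad4* stood highest at 30.2, followed by *Smad3* (18.01), *Smad6* (15.8), *Smad5* (15.6), *Smad7* (10.8), *Smad1* (9.26), *Smad2* (5.54) and *Smad9* (5.12). In that order the ranges of neighbours over the 4 cultures were apart except between *Smad6* and *Smad5* and between *Smad2* and *Smad9*. With TGF-β1 the order was *Smad4* (28.9), *Smad3* (16.5), *Smad7* (16.4), *Smad5* (15.1), *Smad6* (13.3), *Smad1* (11.5), *Smad2* (5.75) and *Smad9* (3.46), and the ranges overlapped only between *Smad3* and *Smad7*. By this length *Smad7* was in the fifth place with vehicle and in the third with TGF-β1.

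The levels per kilobase were also summed by class. Summed *Smad1*, *Smad5* and *Smad9* were at 29.9 to 30.1 with vehicle and 29.6 to 30.2 with TGF-β1, so by exon length the ranges of the sum overlapped. Within it the ratio of *Smad1* to *Smad5* was 0.576 to 0.622 with vehicle and 0.737 to 0.791 with TGF-β1, and the ratio of *Smad9* to *Smad5* was 0.296 to 0.340 and 0.218 to 0.241. Summed *Smad2* and *Smad3* were at 23.3 to 23.8 with vehicle and 21.9 to 22.7 with TGF-β1, and summed *Smad6* and *Smad7* at 25.5 to 27.5 and 29.0 to 30.4, both without overlap between vehicle and TGF-β1. *Smad7* went from 9.78% ± 0.388 to 14.8% ± 0.315 of the sum over all 8 members, and *Smad6* from 14.35% ± 0.459 to 11.99% ± 0.583 (SD, n = 4 each). That sum was 109 to 112 CPM per kilobase in both groups. These shares rest on the exon length used. With the longest transcript in its place, *Smad1* was at 15.4 rather than 9.26 with vehicle, which put it above *Smad7* (11.4). With TGF-β1 *Smad1* was then at 19.0, above *Smad3* (17.9) and *Smad7* (17.3) and below *Smad4* (31.7), so that *Smad7* was in the sixth place with vehicle and in the fourth with TGF-β1. By that length the means of the summed BMP class were 38.05 with vehicle and 39.5 with TGF-β1. These lay further apart than the means by exon length, 29.97 and 30.03, so the near-equal sums also rest on the length used.

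**Figure D3:**
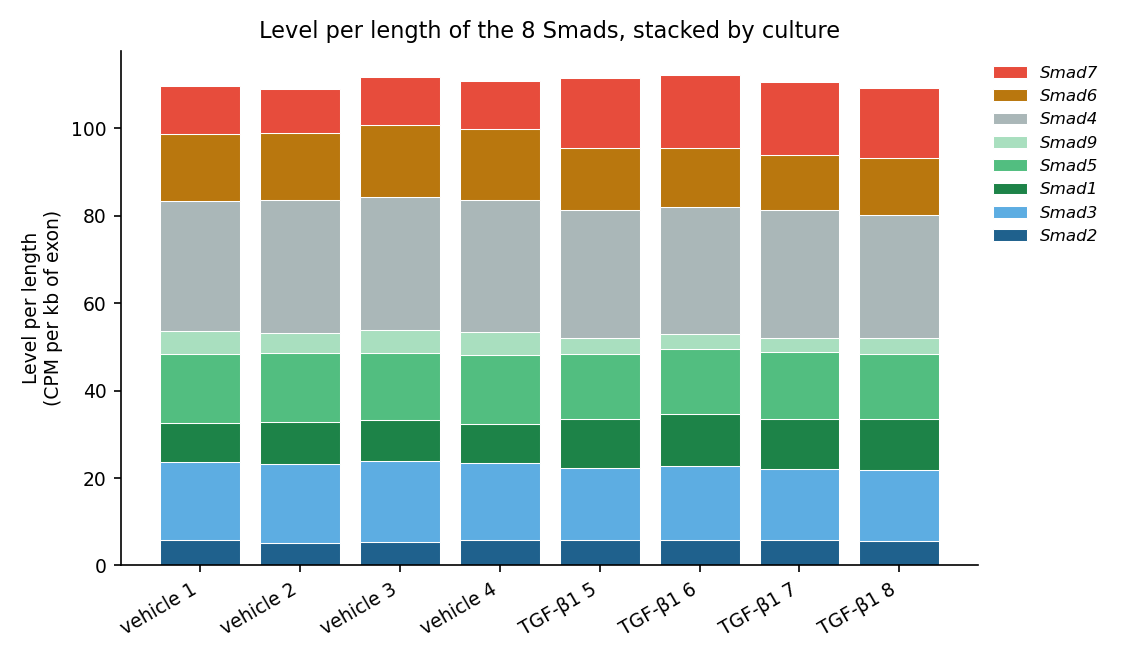
Stacked level per length of the 8 Smads (CPM per kilobase of exon, vertical axis) in each culture, with 1 bar per culture and 1 colour per Smad. The bars reach 109 to 112 in both groups, with a wider *Smad7* segment and a narrower *Smad9* segment in the 4 TGF-β1 cultures.

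Promoter windows are shown for 3 of the Smads that moved, to set *Smad6* and *Smad9*, which fell, beside *Smad1*, which rose. Each runs from 200 bases before to 20 bases after the RefSeq gene start on GRCm38.p6, 5′ to 3′ on the gene's strand, at chr9:64022040-64022259 (minus) for *Smad6*, chr3:54755382-54755601 (plus) for *Smad9* and chr8:79399409-79399628 (minus) for *Smad1*. Capitals mark matches on either strand to GTCTAGAC, the palindromic Smad-binding element, to CAGAC, the Smad box, or to GGCGCC, a GC-rich element bound by BMP Smads.
Smad6: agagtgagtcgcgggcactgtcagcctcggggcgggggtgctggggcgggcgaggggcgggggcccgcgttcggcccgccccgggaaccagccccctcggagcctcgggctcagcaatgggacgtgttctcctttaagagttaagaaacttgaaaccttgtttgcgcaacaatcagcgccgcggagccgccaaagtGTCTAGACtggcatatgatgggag
Smad9: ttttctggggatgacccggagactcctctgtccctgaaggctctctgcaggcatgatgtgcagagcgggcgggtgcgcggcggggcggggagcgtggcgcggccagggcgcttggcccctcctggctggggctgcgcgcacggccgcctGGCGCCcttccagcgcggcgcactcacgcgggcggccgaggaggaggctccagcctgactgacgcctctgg
Smad1: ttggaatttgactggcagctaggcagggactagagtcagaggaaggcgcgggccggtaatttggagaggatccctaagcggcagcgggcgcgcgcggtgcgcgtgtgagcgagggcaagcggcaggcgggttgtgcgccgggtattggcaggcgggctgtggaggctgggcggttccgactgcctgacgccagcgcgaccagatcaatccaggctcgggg
The *Smad6* window held GTCTAGAC across the gene start, from base -4 to base 4, and 0.213% of the 32851 promoter windows of 300 bases held these letters. The *Smad9* window held GGCGCC from base -51 to base -46, which 11.9% of windows held. Neither the *Smad1* nor the *Smad3* window held any of the 3 motifs, and CAGAC was in 49.6% of windows. Matches were sought in the whole window of 300 bases. Of the 3 RefSeq starts of *Smad5*, 1 had GGCGCC from base -19 to base -14 and another had it from base 24 to base 29. The remaining start had CAGAC from base -21 to base -17. These matches describe letters only and are not evidence of binding.

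The genes that surround the Smads in the pathway were taken from lists written by role. Of 94 such genes, 85 were tested, and 42 rose and 27 fell, which is 81.2% called. Among those with a mean of at least 10 CPM, 61 of 71 were called, where all genes at that level gave 60.9%. The lists were written with earlier results of these data known, so this difference is a description and not a test. The median log2 fold change over all genes tested was -0.01.

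Among ligands of the TGF-β and activin branch, 4 of the 7 tested rose and 2 fell (median log2 fold change 0.09). *Inhba*, the activin A subunit, went from 62.6 ± 3.85 to 139.9 ± 8.42 CPM, *Inhbb* rose 1.9-fold to 73.3 CPM, and *Tgfb1* itself from 84.2 ± 1.78 to 136 ± 2.51 CPM (SD, n = 4 each), whereas *Tgfb2* fell, at 0.774 of the vehicle level. Of the 4 BMP ligands tested 2 rose and 2 fell (median -0.41). *Bmp4* rose 1.24-fold from 53.0 CPM and *Bmp6* rose 1.16-fold, while *Bmp7* and *Bmp2*, both under 2 CPM, fell by 2.06 and 1.03 on the log2 scale.

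Of the 8 TGF-β and activin receptors and co-receptors, 2 rose and 2 fell (median 0.08). *Tgfbr2*, the receptor that binds TGF-β1, went from 406 ± 4.15 to 270.5 ± 15.1 CPM, and *Tgfbr1*, the kinase that phosphorylates Smad2 and Smad3, from 35.2 ± 2.09 to 48.2 ± 0.911 CPM (SD, n = 4 each). Of the 7 BMP receptors and co-receptors, 4 rose and 2 fell (median 0.36). *Acvrl1* (ALK1), through which TGF-β and BMP9 reach Smad1 and Smad5, went from 9.14 ± 0.949 to 22.5 ± 1.39 CPM, *Bmpr2* from 328 ± 1.89 to 421 ± 8.88 CPM and *Acvr1* from 54.0 ± 1.27 to 73.6 ± 2.60 CPM. The co-receptor *Rgmb* fell by 0.41 on the log2 scale.

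Transcripts of proteins that carry, modify or restrain Smads moved in both directions. So did all genes tested, with 20.9% called higher and 20.3% lower, and 60.9% called at a mean of at least 10 CPM. Of the 6 adaptors and transport factors tested, 2 rose and 1 fell (median 0.01), led by *Dab2* (log2 fold change 0.34), and *Zfyve9* (SARA), which presents Smad2 and Smad3 to the receptor, fell by 0.12. The *Hgs* identifier used (ENSMUSG00000116045) is listed at 0 in each culture and was not tested. Of 16 ubiquitin ligases, deubiquitinases and phosphatases, 8 rose and 5 fell (median 0.07). *Smurf1*, a ligase that targets BMP Smads and works with Smad7, rose by 0.36 on the log2 scale and *Wwp2* also by 0.36, while *Wwp1* fell by 0.64 and the phosphatase *Ctdspl* fell by 0.58. Among the 5 co-repressors tested, 3 rose and 1 fell (median 0.31). *Skil* (SnoN), which holds Smad complexes inactive on DNA, went from 104 ± 2.99 to 204 ± 7.27 CPM, *Tgif1* from 63.9 ± 0.515 to 103 ± 3.99 CPM and *Ski* from 233 ± 4.25 to 289.5 ± 6.18 CPM (SD, n = 4 each). Of the 9 co-activators and partners, 4 rose and 3 fell (median 0.09). The DNA-binding partners *Runx1*, *Runx3* and *Runx2* rose by 0.74, 0.55 and 0.25 on the log2 scale, and the acetyltransferase *Kat2a* fell by 0.23. All 3 membrane feedback inhibitors, *Pmepa1* (log2 fold change 1.10), *Ldlrad4* (0.46) and *Bambi* (0.39), rose.

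Of the 11 genes tested that are known targets of Smad2 and Smad3, 10 rose and 1 fell (median log2 fold change 0.49). *Col7a1*, a collagen of anchoring fibrils, went from 19.5 ± 1.66 to 134 ± 16.2 CPM, and *Timp1*, an inhibitor of metalloproteinases, from 94.7 ± 3.63 to 207 ± 6.36 CPM (SD, n = 4 each). *Tgfbi*, a matrix protein named for its induction by TGF-β, was the exception, at 230 ± 4.78 CPM with vehicle and 81.2 ± 10.3 CPM with TGF-β1. *Cdkn2b* is listed at 0 in each culture. Of the 9 targets of the BMP Smads none rose and 8 fell (median -0.79). *Id4* fell by 1.53 on the log2 scale, *Tmem100* by 1.24, *Atoh8* by 0.79, *Id2* went to 0.459 of its vehicle level, *Id3* and *Id1* fell by 0.41 and 0.19, and *Msx2* did not pass the test (log2 fold change -0.05, adjusted p = 0.36 from edgeR). *Hey1*, at under 1 CPM, was close to the threshold (adjusted p = 0.0485).

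**Figure D4:**
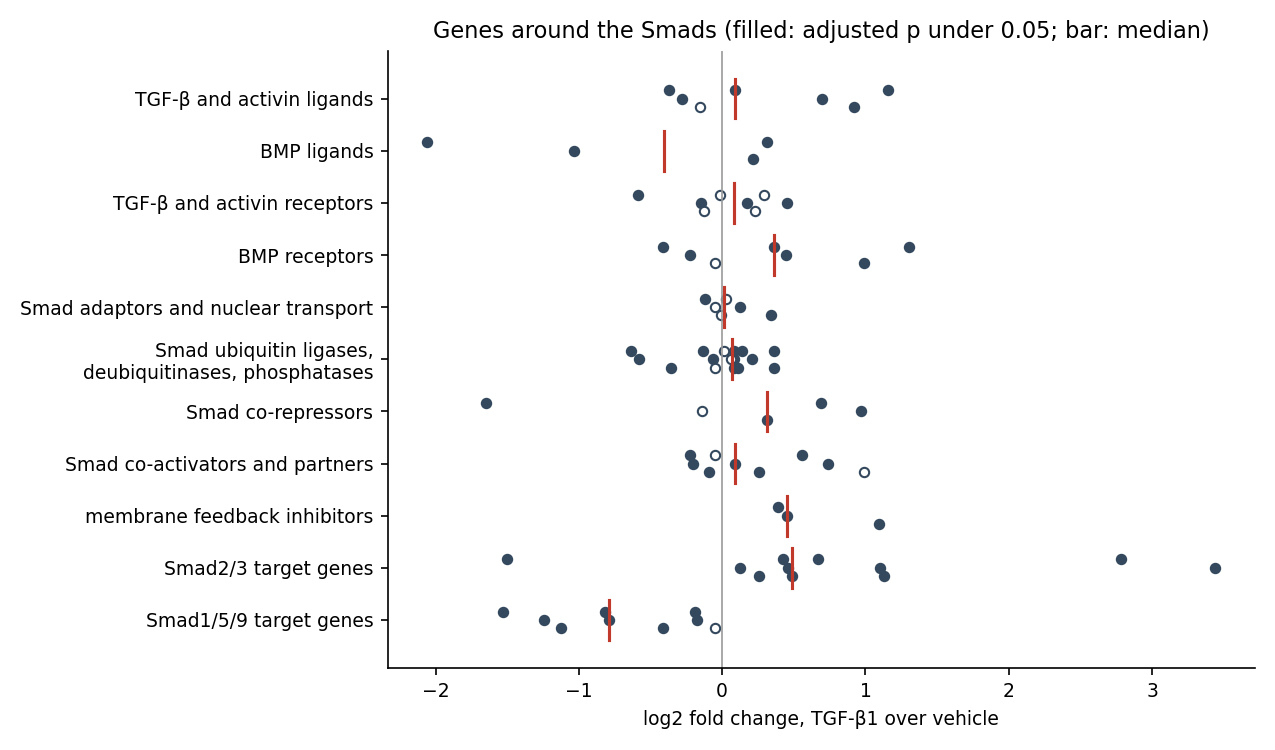
Log2 fold change, TGF-β1 over vehicle, on the horizontal axis for the 85 tested genes around the Smads, with 1 row per list, filled points for genes with an adjusted p under 0.05, open points for the others and a red bar at each list's median. The median is 0.49 for targets of Smad2 and Smad3 and -0.79 for targets of the BMP Smads.

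The genes whose levels most resembled each changed Smad over the 8 cultures were found by the root mean square difference of centred log2 CPM among 16486 genes with a mean of at least 1 CPM. The nearest to *Smad7* were *Myc* (0.0258) and *Nuak1* (0.0364), and the nearest to *Smad1* were *Ifngr2* (0.0192) and *Ptpn12* (0.0243). *Efr3a* (0.0114) and *Twsg1* (0.0148) were nearest to *Smad3*, *Mfap1a* (0.0241) and *Acbd4* (0.0298) to *Smad6*, and *Fhl1* (0.0352) and *Bvht* (0.0507) to *Smad9*. With 8 cultures in 2 groups this likeness mostly restates a fold change of the same size.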

How the data were processed

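Bulk RNA-seq of 8 mouse brain pericyte cultures was analysed from the deposited counts. The authors aligned reads to mm10 with STAR 2.7.5c in 2-pass mode, used SAMtools 1.15 to remove duplicates and obtained gene-level read numbers from featureCounts 2.0.3. Annotation release, strand setting and treatment of shared reads are not given in the sources used here, and the library kit is stranded. Symbols, positions and exon lengths came from GENCODE M21 (GRCm38, the assembly that mm10 names), and 54409 of 54532 identifiers had a symbol. Groups were compared with edgeR 4.0.16 in R 4.3.3 (filterByExpr, TMM, robust quasi-likelihood test, Benjamini-Hochberg adjustment over all 22544 genes tested, threshold 0.05), tested on simulated data. DESeq2 1.42.0, other scalings and filters, halved counts and each culture left out were the alternatives. The standard error is the size of the log2 fold change divided by the square root of F.

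Depth was 45255235 to 47651397 counts per culture. From 68.5% to 70.2% of counts between 1 and 20 were even, and whether both mates of a pair were counted is not given in the sources used here, so counts were also halved. Between cultures of a group, chi-square per degree of freedom was 2.25 to 3.93, or 1.14 to 2.11 with counts halved. The lowest values were between vehicle replicates 3 and 4. No culture was treated as a repeat. The p-values measure the spread between these cultures, which for some Smads was near that of counting alone. The coefficient of variation of *Smad4* was 1% with vehicle and 1.64% with TGF-β1. Counting alone gives 1.36% to 1.43% if each deposited count is an independent fragment. For *Smad9* the coefficient of variation was 5.91% and 4.58%, against 2.75% to 3.52% on the same basis. If both mates of a pair were counted, the spread from counting alone would be larger than these values. How much of the spread came from the isolates was not tested.

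The members, lists and alternatives were chosen with earlier results of these data known. The text names all members, up to 4 called genes of each list with the largest change (or others for their role), and the 2 genes nearest in profile to each called member. No protein sequences were used here. Promoters for *Smad2*, *Smad4* and *Smad7* were not used here. The values of 1 list gene are not reported here.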

Additional observations from a re-analysis of the deposited data

Results flagged for a closer look

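Of 18 sets of 4 values (each Smad and the library totals, in both groups), 2 contained a single culture set apart from its group, and a 1 in 20 rate would give 0.9. *Smad4* was at 104.8 CPM in TGF-β1 replicate 8, and the nearest other TGF-β1 culture was at 108.0. *Smad5* was at 113.8 CPM in TGF-β1 replicate 7, with the nearest at 111.4.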

How the results depend on the processing

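*Smad1*, *Smad3*, *Smad6*, *Smad7* and *Smad9* kept their direction and call, and *Smad2* and *Smad5* stayed above the threshold, under all 7 alternatives for the tool, scaling, filter or counting and with each of the 8 cultures left out. *Smad4* kept its direction and passed the threshold with library totals (log2 fold change -0.0734), upper-quartile factors (-0.0682), at least 10 counts in every culture (-0.0625, adjusted p = 0.0492) and halved counts (-0.0625, adjusted p = 0.0496), so that 4 rather than 3 Smads were lower there. It did not with DESeq2 (adjusted p = 0.0758), its size factors (0.0855) or a filter of 1 count in any culture (0.0865), and with each culture left out it ranged from -0.0708 (TGF-β1 replicate 5, adjusted p = 0.0482) to -0.0425 (TGF-β1 replicate 8, adjusted p = 0.262). Over the leave-one-out fits *Smad7* ranged from 0.575 to 0.626, *Smad1* from 0.29 to 0.33, *Smad3* from -0.14 to -0.11, *Smad6* from -0.29 to -0.23 and *Smad9* from -0.60 to -0.54. With the longest transcript as length, vehicle levels per kilobase were 15.4 for *Smad1*, 6.01 for *Smad2*, 19.6 for *Smad3*, 33.1 for *Smad4*, 17.6 for *Smad5*, 17.1 for *Smad6* and 11.4 for *Smad7*. No paired analysis was possible because the vehicle cultures are numbered 1 to 4 and the TGF-β1 cultures 5 to 8.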
